A study of Mus musculus with 16 samples.

Results

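The fibroblasts described here are cells of the mouse aorta with UMIs of at least 2 of the 4 genes Hsd11b1, Cpxm2, Vegfd and F3, and are called rule-positive fibroblasts. A UMI is a unique molecular identifier, the tag that counts 1 captured RNA molecule. A cell was taken as a fibroblast when it held at least 5 UMIs of Dcn, which encodes the matrix proteoglycan decorin, and more UMIs of Dcn than of Myh11, the smooth muscle myosin gene. By that rule 36066 of 50858 cells kept in 16 libraries were fibroblasts, and 16491 of them (45.7%) were rule-positive. The remaining fibroblasts are called the other fibroblasts. The cells were chosen by the measured UMIs of the 4 genes, so the levels of those genes in them are a description.

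Each library came from the aorta of 1 male mouse, cut from the root to the arch, and RNA was counted from its 3' end after live nucleated cells had been sorted. All mice were of the 129S6/SvEv background and carried Myh11-CreER, a Y-linked, tamoxifen-inducible Cre recombinase driven in vascular smooth muscle cells (VSMCs). All received 2 mg of tamoxifen per day for 5 days from 6 weeks of age. Smad3SmKO mice were also homozygous for a floxed Smad3 allele (Smad3lox/lox), and the control mice were Smad3+/+. Collection followed 10 weeks later (age 16 weeks) for 2 Smad3+/+ and 2 Smad3SmKO mice, and 18 weeks later (age 24 weeks) for 5 Smad3+/+ and 7 Smad3SmKO mice. Some mice also carried an EGFP-L10a tracer. By the labels, at 10 weeks these were the Smad3+/+ and not the Smad3SmKO mice. At 18 weeks they were the mice with 60 min and not those with 30 min of tissue digestion. The tracer label thus coincides with the genotype label at 10 weeks and with digestion time at 18 weeks. Fibroblasts were not the target of the Cre, so a genotype difference in them is one in cells that lie beside the targeted ones. Digestion lasted 30 min in batches 1 to 3 and 60 min in batches 4 to 6, all 10-week libraries were in batch 4, and batch 5 held only Smad3SmKO libraries.

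The adventitia is the outer coat of the artery, where fibroblasts lie among collagen, small vessels, lymphatics and nerves. Hsd11b1 encodes the enzyme that turns inert glucocorticoid back into its active form inside the cell, with NADPH supplied through H6pd. Cpxm2 encodes a secreted protein of the carboxypeptidase family. Vegfd encodes vascular endothelial growth factor D, a ligand for receptors of lymphatic and blood vessel endothelium, and F3 encodes tissue factor (CD142), the cell-surface trigger of blood clotting. In fat tissue, CD142 marks a stromal population that also expresses Fmo2, Clec11a and Gdf10.

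In the GENCODE annotation of mm10, Hsd11b1 lies at chr1:193221634-193264075 (minus strand), Cpxm2 at chr7:132032687-132154739 (minus), Vegfd at chrX:164373378-164402650 (plus) and F3 at chr3:121723537-121735048 (plus). Their RefSeq promoter windows (GRCm38.p6) are shown because the 4 transcripts were detected together in the same cells. The RefSeq start of Hsd11b1 lies inside the GENCODE span of the gene. Each window runs from 250 bases before to 50 bases after the annotated start, 5' to 3' on the strand of the gene, at chr1:193242311-193242610, chr7:132154692-132154991, chrX:164373272-164373571 and chr3:121723287-121723586. Capitals mark matches on either strand to the AP-1 motif TGANTCA, the CCAAT box, the TATA box letters TATAA and the GC box GGGCGG.
Hsd11b1: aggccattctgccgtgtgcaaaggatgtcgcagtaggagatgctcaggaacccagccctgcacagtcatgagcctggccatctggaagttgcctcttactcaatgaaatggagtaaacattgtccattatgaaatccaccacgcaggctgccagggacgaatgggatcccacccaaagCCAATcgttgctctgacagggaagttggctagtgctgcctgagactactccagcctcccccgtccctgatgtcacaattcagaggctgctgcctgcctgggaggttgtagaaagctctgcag
Cpxm2: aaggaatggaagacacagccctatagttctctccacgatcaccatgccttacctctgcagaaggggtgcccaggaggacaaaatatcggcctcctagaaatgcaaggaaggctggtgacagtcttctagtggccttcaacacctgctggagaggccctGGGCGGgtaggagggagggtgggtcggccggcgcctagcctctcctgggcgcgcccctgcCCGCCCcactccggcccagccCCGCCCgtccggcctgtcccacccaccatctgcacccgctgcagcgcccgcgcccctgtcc
Vegfd: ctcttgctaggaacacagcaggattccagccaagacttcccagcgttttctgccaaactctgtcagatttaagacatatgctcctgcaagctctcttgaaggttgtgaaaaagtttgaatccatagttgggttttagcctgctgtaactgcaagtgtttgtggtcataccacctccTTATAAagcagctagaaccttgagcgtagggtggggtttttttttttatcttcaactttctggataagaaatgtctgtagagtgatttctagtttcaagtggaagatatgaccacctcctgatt
F3: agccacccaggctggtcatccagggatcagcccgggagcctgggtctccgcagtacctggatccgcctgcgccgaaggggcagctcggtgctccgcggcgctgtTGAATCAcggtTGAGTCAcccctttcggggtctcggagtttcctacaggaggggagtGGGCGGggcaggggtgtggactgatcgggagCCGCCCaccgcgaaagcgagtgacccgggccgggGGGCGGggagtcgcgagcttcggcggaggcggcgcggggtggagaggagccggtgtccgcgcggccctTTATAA
No motif searched was found in all 4 windows. The F3 window held AP-1 matches that began at positions -146 and -135 from the start and 3 GC boxes. The Cpxm2 window held 3 GC boxes, the Hsd11b1 window 1 CCAAT box at position -72, and the Vegfd window TATAA at position -73. In F3, TATAA began after the start, at position 46, and in both F3 and Vegfd it overlapped a match on the other strand. Of 32851 promoter windows, 7.81% held the AP-1 motif, 37.4% the CCAAT box, 24.9% TATAA and 35.7% the GC box. The nuclear receptor motif AGGTCA (16.3% of windows) and the glucocorticoid receptor motif AGAACA (19.0%) had no match in the 4 windows. The GC content ranged from 42.0% in Vegfd to 70.3% in F3. These matches describe letters only.

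Among all fibroblasts, 27.35% had UMIs of none of the 4 genes, 26.9% of 1, 20.9% of 2, 16.4% of 3 and 8.48% of all 4. The threshold between 1 and 2 genes thus ran through a continuous range, with 9711 cells just outside it (median 8137 UMIs) and 7535 just inside (median 9239 UMIs). F3 was detected most often, in 85.4% of the rule-positive fibroblasts, followed by Hsd11b1 in 71.6%, Cpxm2 in 67.1% and Vegfd in 48.7%. The commonest combination was Hsd11b1, Cpxm2 and F3 without Vegfd (3389 cells, 20.6%), followed by all 4 genes (3059 cells). The rarest was Hsd11b1, Cpxm2 and Vegfd without F3 (421 cells, 2.55%).

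In other cell types of the same libraries, UMIs of 2 or more of the 4 genes were rare. They were found in 1.06% of 8950 VSMCs (95% Wilson interval 0.869% to 1.30%, counting error only), which had a median depth of 7954 UMIs. The share was 0.552% of 2175 leukocytes at a median of 5898 UMIs and 0.201% of 994 endothelial cells at 5598 UMIs, against 45.7% of fibroblasts at 8459 UMIs.

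A cell with more UMIs is more likely to pass the rule. The rule-positive fibroblasts had a median of 9597 UMIs and 2900 genes per cell and the other fibroblasts of 7424 UMIs and 2459 genes, and the median UMI count was higher in the rule-positive cells of 13 of 16 libraries, by at most 1.29 times. Shares are therefore also given after each cell was thinned at random to 2000 UMIs, with the rule applied again to the thinned counts. Gene counts are also given with other fibroblasts matched by UMIs. Where neighbours, gene counts and other gene sets are given with thinned cells, the rule-positive cells are still those chosen on all UMIs.

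One library stood apart. Smad3SmKO replicate 7 of 18 weeks, in batch 5, held 196 fibroblasts, of which 35 were rule-positive, with the highest median depth (22128 UMIs). In the rule-positive cells it held 34.4 CPM of F3, against 238 to 1202 CPM in the other 15 libraries, where CPM is the UMIs of a gene scaled to the summed UMIs of the population. It held 6444 CPM of Spp1, which encodes osteopontin, against at most 429.5 CPM, and 553 CPM of Slpi, a protease inhibitor gene, against at most 14.9 CPM. These genes were chosen after their values were seen. Its summed VSMC markers came to 13974 CPM, against 517 to 4529 CPM in the other libraries. In 4 libraries, both Smad3SmKO of 10 weeks and Smad3+/+ replicates 4 and 5 of 18 weeks, the presence of GFP UMIs went against the tracer label. The main counts are also given without these 4 libraries. A pair of libraries shared at most 3507 deposited barcodes and at most 11 kept ones, and 216 rule-positive cells had a barcode kept in another library as well. The targeted gene, Smad3, was at 9.32 ± 4.37 CPM (SD, n = 7) in the VSMCs of the Smad3SmKO libraries of 18 weeks and at 7.44 ± 2.79 CPM (n = 5) in those of Smad3+/+. The deleted exons are not given in the sources used here and the counts come from the 3' end, so this does not check the deletion. The paper itself reports significantly lower Smad3 in Smad3SmKO aortas, as protein by immunoblot and as RNA by qPCR relative to Myh11. In the rule-positive fibroblasts Smad3 was at 21.2 ± 6.90 CPM (n = 7) and 22.5 ± 3.48 CPM (n = 5).

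The share of rule-positive cells was compared between the genotype labels. At 18 weeks the Smad3+/+ libraries held 52.5%, 43.8%, 45.5%, 46.4% and 50.2%, and the Smad3SmKO libraries 17.9% to 62.1% with a median of 48.1%. The Smad3SmKO values went beyond the Smad3+/+ range on both sides. The means were 47.7% ± 3.59 (SD, n = 5) and 45.0% ± 14.9 (n = 7), and the difference of -2.68 percentage points was within the spread (two-sided exact permutation test, 792 arrangements, p = 0.746, smallest possible 0.00126). Without replicate 7 the Smad3SmKO mean was 49.5% ± 9.80 (n = 6) and the difference 1.84 points (exact permutation p = 0.693), and without the libraries whose GFP went against the label it was -2.25 (exact permutation p = 0.817). After thinning, the shares were 18.2% ± 5.47 and 19.8% ± 10.3 (exact permutation p = 0.750). With labels exchanged within batches alone, the exact permutation p was 0.917, and 0.444 after thinning. Smad3SmKO minus Smad3+/+ was 1.22 points in batch 1, -6.02 in batch 2, 18.3 in batch 3 and -9.82 in batch 6. At 10 weeks the Smad3+/+ libraries held 66.5% and 25.8% and the Smad3SmKO libraries 39.3% and 44.4%, with no test. A share does not tell more cells of one kind from fewer of the others.

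**Figure D1:**
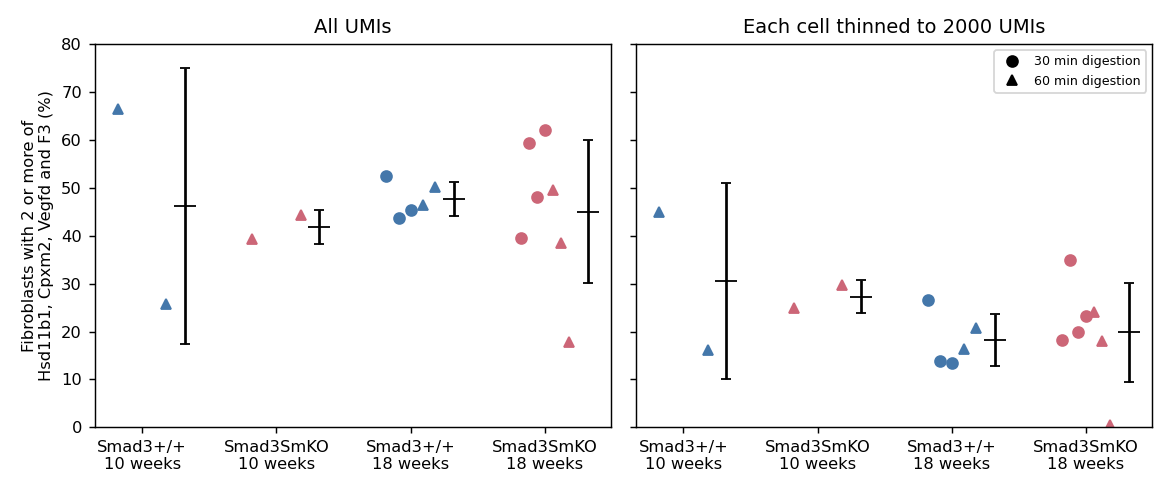
Share of fibroblasts that were rule-positive (y axis, %) by genotype label and weeks after deletion, with 1 point per library (circles 30 min, triangles 60 min digestion) and the mean ± SD of each group, on all UMIs (left) and with each cell thinned to 2000 UMIs (right). At 18 weeks the 5 Smad3+/+ libraries lie between 43.8% and 52.5% and the 7 Smad3SmKO libraries between 17.9% and 62.1%.

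The level of each rule gene over all fibroblasts needs no detection threshold, and it also overlapped between the labels at 18 weeks. Hsd11b1 was at 141 ± 58.6 CPM (SD, n = 5) in the Smad3+/+ and 162 ± 86.6 CPM (n = 7) in the Smad3SmKO libraries. Vegfd was at 83.5 ± 30.8 CPM (SD, n = 5) in the Smad3+/+ and 90.0 ± 53.7 CPM (n = 7) in the Smad3SmKO libraries. F3 was at 308 ± 72.6 CPM (SD, n = 5) in the Smad3+/+ and 276 ± 171 CPM (n = 7) in the Smad3SmKO libraries, and Smad3SmKO replicate 7 was the lowest library for F3. Cpxm2 was at 94.6 ± 31.0 CPM (SD, n = 5) in the Smad3+/+ and 147 ± 62.1 CPM (n = 7) in the Smad3SmKO libraries, with 67.0 to 145 CPM and 50.7 to 235 CPM (two-sided exact permutation p = 0.115, adjusted over 4 genes 0.460, within batches 0.0833). The exact permutation p of the other genes lay between 0.643 and 0.821.

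Each rule gene was also compared between fibroblasts with UMIs of at least 2 of the other 3 genes and the rest, a choice in which it had no part. Hsd11b1 was at 326 ± 137 CPM (SD, n = 16 libraries) in the fibroblasts so chosen and 67.9 ± 25.9 CPM in the rest, higher in 16 of 16 libraries (log2 fold change 2.29 ± 0.13, SE, edgeR adjusted p = 5.41e-10). In that fit 1.96% of all genes were called higher, by an adjusted p below 0.05 and a log2 fold change of at least 1. Cpxm2 was at 251 ± 115 CPM (SD, n = 16 libraries) in the fibroblasts so chosen and 60.8 ± 34.9 CPM in the rest, higher in 15 of 16 libraries (log2 fold change 2.19 ± 0.14, SE, edgeR adjusted p = 4.22e-09, 1.78% called higher). F3 was at 698 ± 324 CPM (SD, n = 16 libraries) in the fibroblasts so chosen and 193 ± 136 CPM in the rest (log2 fold change 2.02 ± 0.10, SE, edgeR adjusted p = 3.79e-11, 1.67% called higher). Vegfd was at 154 ± 68.7 CPM (SD, n = 16 libraries) in the fibroblasts so chosen and 42.5 ± 16.7 CPM in the rest (log2 fold change 1.92 ± 0.15, SE, edgeR adjusted p = 2.19e-08, 2.1% called higher). F3 and Vegfd were higher in 16 of 16 libraries. The 4 genes had been put together from these data, so this is a measure of their co-detection and no independent support for the set.

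The same was seen cell by cell. Of fibroblasts with a UMI of Hsd11b1, 56.5% also had Cpxm2, against 24.7% of those without, and the shares were 40.1% and 14.1% after thinning. For F3 they were 72.9% and 36.9%, and 57.4% and 24.4% after thinning. For Vegfd they were 37.8% and 19.2%, and 20.8% and 9.52% after thinning.

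Rule-positive cells were also near each other in expression. In principal components made without the rule genes, Dcn, Myh11 and mitochondrial and ribosomal protein genes, 72.4% ± 12.3 (SD, n = 16 libraries) of the 15 nearest fibroblasts of a rule-positive cell were rule-positive, against 27.5% ± 8.20 for the other fibroblasts. With thinned cells, and the rule-positive cells still those chosen on all UMIs, the values were 70.5% ± 12.05 and 28.2% ± 8.26. Smad3SmKO replicate 7 had the lowest value for rule-positive cells, 33.7%.

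Of 12266 other genes tested against the other fibroblasts of the same libraries, 243 were called higher (1.98%) and 304 lower (2.48%) in the rule-positive cells, by edgeR with the library as a block. With other fibroblasts matched by UMIs the counts were 236 and 286. With thinned cells, the rule-positive ones still chosen on all UMIs, they were 145 and 144. Without Smad3SmKO replicate 7 they were 272 and 345, and without the libraries whose GFP went against the label 242 and 355.

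The 12 called genes with the highest fold that reached 20 CPM and were higher in every library are described first. Among them Gdf10, which encodes a BMP-family ligand, was at 261, 387, 539, 235 and 216 CPM in the rule-positive cells of the Smad3+/+ libraries of 18 weeks and at 158 to 564 CPM in the Smad3SmKO libraries. At 10 weeks it was at 814 and 667 CPM in Smad3+/+ and at 605 and 788 CPM in Smad3SmKO. The 10-week libraries were the highest under both labels, and in every library the rule-positive cells were above the rest. Over all 16 libraries Gdf10 was at 446 ± 209 against 119 ± 98.8 CPM (log2 fold change 2.23 ± 0.16, SE, edgeR adjusted p = 1.11e-08). Svep1, a large adhesion and matrix protein gene known from lymphatic development, was at 127 ± 50.2 against 34.1 ± 18.1 CPM (2.03 ± 0.09 on the log2 scale). Its highest value was in a 10-week Smad3+/+ library and its lowest in Smad3SmKO replicate 7. Fmod, the gene of the collagen-binding proteoglycan fibromodulin, was at 169 ± 88.6 against 47.1 ± 25.01 CPM (1.94 ± 0.13). Fbln7, a fibulin gene, was at 115 ± 36.7 against 32.1 ± 21.7 CPM (2.07 ± 0.16), and Egflam, the gene of the dystroglycan ligand pikachurin, at 27.9 ± 12.1 against 6.55 ± 4.25 CPM (2.18 ± 0.18).

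Of the other 7 genes, Lypd1, of the Ly6 family, was at 101 ± 46.1 against 21.6 ± 8.01 CPM (log2 fold change 2.25 ± 0.15). Ntrk3, the neurotrophin-3 receptor gene, was at 38.4 ± 20.0 against 9.59 ± 7.68 CPM (2.23 ± 0.14). Tnfsf13b, which encodes the B-cell survival factor BAFF, was at 33.8 ± 9.05 against 7.48 ± 3.22 CPM (2.26 ± 0.13). Its lowest library of rule-positive cells, at 18.7 CPM, lay above its highest library of other fibroblasts, at 15.3 CPM. Colec11, a collectin gene of the lectin pathway of complement, had the highest fold of the 12, at 26.0 ± 19.2 against 4.65 ± 3.70 CPM (2.53 ± 0.26). C2, a complement protease gene, was at 39.6 ± 18.8 against 11.3 ± 6.63 CPM (2.03 ± 0.15). Angpt4, an angiopoietin gene, was at 33.1 ± 20.5 against 9.12 ± 5.32 CPM (1.91 ± 0.12), and Cpz, a carboxypeptidase gene, at 45.3 ± 21.6 against 10.5 ± 10.8 CPM (2.47 ± 0.18). The edgeR adjusted p of these 7 genes lay between 6.45e-10 for Tnfsf13b and 7.51e-07 for Colec11.

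The 12 genes with the lowest fold by the same rule were low in the rule-positive cells. Wnt16, a Wnt ligand gene, was at 3.67 ± 2.30 against 43.5 ± 39.4 CPM (log2 fold change -3.43 ± 0.22, edgeR adjusted p = 2.53e-09). Nrgn, the neurogranin gene, was at 2.72 ± 2.78 against 41.9 ± 38.1 CPM (-3.77 ± 0.21), and Cttnbp2, a cortactin-binding protein gene, at 1.73 ± 1.79 against 21.7 ± 22.1 CPM (-3.45 ± 0.17). Mal, a membrane proteolipid gene, was at 2.30 ± 2.20 against 24.97 ± 21.4 CPM (-3.21 ± 0.19). Tesc (-3.27 ± 0.26), Ctla2a (-3.19 ± 0.39), Rtn1 (-2.69 ± 0.22), Cda (-2.46 ± 0.22), the nestin gene Nes (-2.28 ± 0.14) and Plxdc1 (-1.80 ± 0.15) were lower as well. Scx, the gene of the tendon transcription factor scleraxis, was at 12.7 ± 22.6 against 41.2 ± 28.8 CPM (-2.04 ± 0.25), and Smad3SmKO replicate 7 held 95.9 CPM of it, against at most 16.2 CPM in the other 15 libraries. Selp, the P-selectin gene, reached the 20 CPM minimum only through replicate 7. It was at 263 and 430.2 CPM in the 2 populations of replicate 7, and at 0.796 ± 1.10 and 4.47 ± 3.28 CPM in the other 15 libraries. Coch, the cochlin gene, was lower in those 15 libraries, at 2.38 ± 2.66 against 61.8 ± 54.0 CPM, and was at 0 in both populations of replicate 7.

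**Figure D2:**
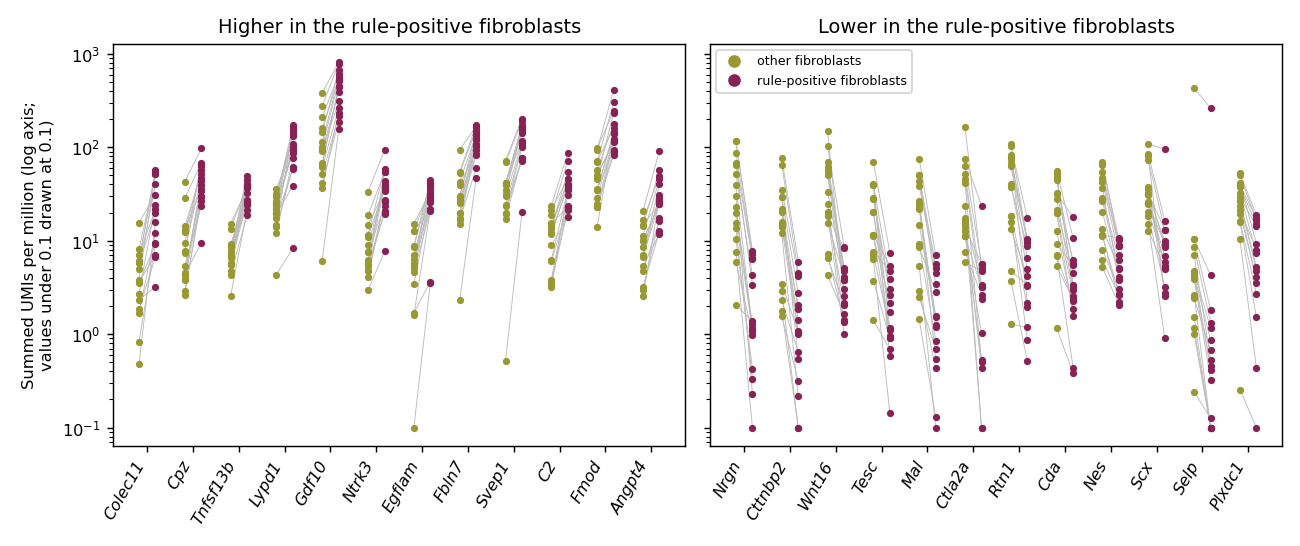
CPM (log axis, values under 0.1 drawn at 0.1) of the 12 highest and 12 lowest genes by fold in the rule-positive (purple) and other fibroblasts (olive) of 16 libraries, with lines joining the populations of a library. Every line rises in the left panel and falls in the right one, by the rule that chose the genes, and the single high pair of Selp is Smad3SmKO replicate 7 (263 and 430.2 CPM).

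Of the 24 genes named so far by fold, 20 moved in 1 direction at every step in the number of rule genes detected, and Egflam, Nrgn, Ctla2a and Selp did not. These genes were chosen by their fold across the threshold of 2 rule genes in the same cells. A trend over the steps was thus largely set by that choice, and the share of all genes with such a trend was not counted. Gdf10 was at 65.0 ± 59.1 CPM (SD, n = 16 libraries) in fibroblasts with none of the 4 genes, 168 with 1, 331 with 2, 504 with 3 and 651 ± 215 CPM (n = 15) with all 4. Between the ends Svep1 went from 22.1 ± 13.2 to 239 ± 70.1 CPM and Fmod from 36.9 ± 20.2 to 316 ± 108 CPM. Nr2f2, the gene of the nuclear receptor COUP-TFII, went from 90.6 ± 82.4 to 513 ± 300.4 CPM, and Wnt16 from 64.0 ± 57.2 to 1.76 ± 2.08 CPM. Pi16, a marker of adventitial fibroblasts, was at 1363 CPM with none, 1709 with 1 and 1159.7 CPM with all 4. Depth moved in the same order, from a median of 6844.5 to 10289 UMIs per cell, and its part in these steps was not tested.

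**Figure D3:**
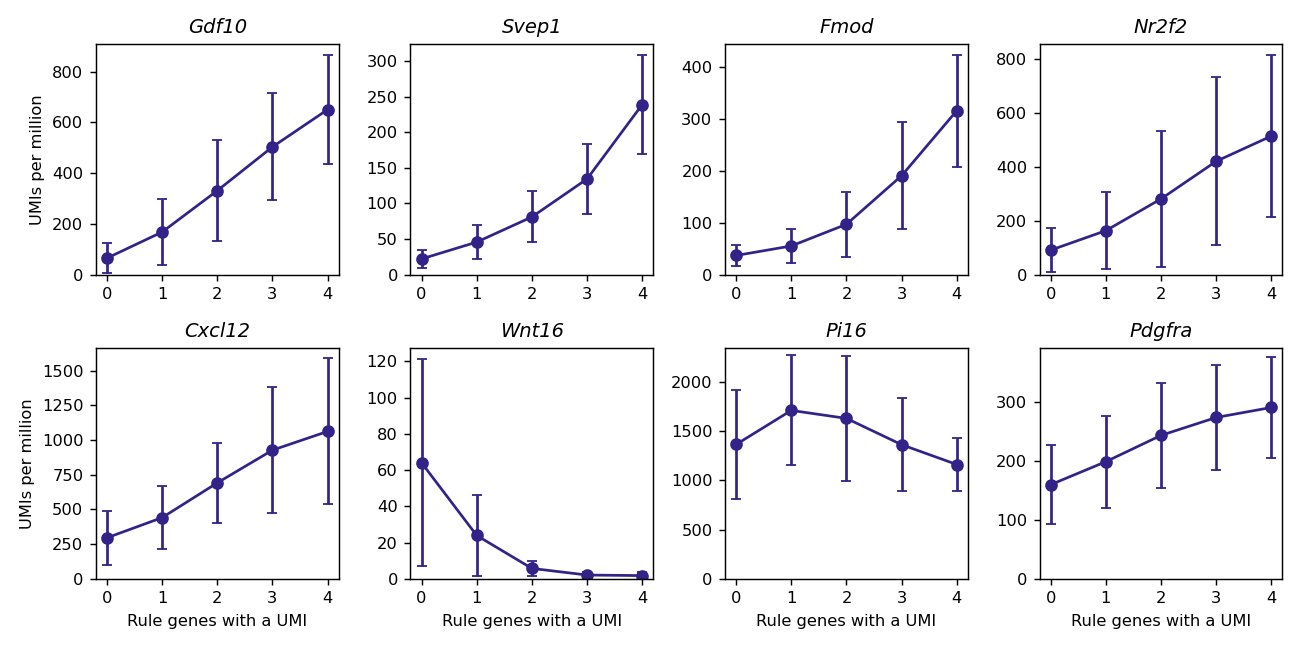
CPM (y axis, mean ± SD over libraries) of genes in fibroblasts with 0, 1, 2, 3 or 4 rule genes detected (x axis). Gdf10 goes from 65.0 to 651 CPM and Wnt16 from 64.0 to 1.76 CPM between the ends.

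Partners of the rule genes were read from lists. Of the 5 tested genes of glucocorticoid metabolism and reception, 2 were called higher and none lower, beside 1.98% and 2.48% of all genes. H6pd was at 41.4 ± 15.7 against 19.6 ± 8.67 CPM (log2 fold change 1.23 ± 0.09, edgeR adjusted p = 5.54e-09), higher in 15 of 16 libraries. Hsd11b2, whose enzyme inactivates glucocorticoid, was low but also higher, at 9.82 ± 6.99 against 3.86 ± 2.56 CPM (1.44 ± 0.21). The receptor gene Nr3c1 differed by 0.28 ± 0.04. Of 16 glucocorticoid-induced genes none was called, and their median was 0.36 on the log2 scale against -0.01 over all genes. By an edgeR adjusted p below 0.05 alone, 11 of them were higher and 2 lower, beside 2356 higher and 2372 lower of all 12266 genes. Cebpd (0.51 ± 0.06), Klf9 (0.34 ± 0.04) and Fkbp5 (0.26 ± 0.07) were examples on the higher side.

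The list counts that follow stand beside 1.98% of all genes called higher and 2.48% called lower. Of 14 genes of the VEGF and angiopoietin families and their processing, 3 were called higher and none lower. Beside Angpt4 these were Flt1, a VEGF receptor gene (1.10 ± 0.16 on the log2 scale), and Ccbe1, the gene of a cofactor in the processing of lymphatic VEGF ligands (1.09 ± 0.09). Adamts3, the gene of the protease in that processing, was at 0.74 ± 0.18, the co-receptor gene Nrp1 at 0.67 ± 0.05, Vegfc at 0.42 ± 0.10 and Vegfa at -0.90 ± 0.09. Of 6 carboxypeptidase genes, Cpz and Cpxm1 (261 against 111 CPM, 1.40 ± 0.12) were called higher and none lower, and Aebp1 was at 0.97 ± 0.08. Of 16 clotting and fibrinolysis genes none was called higher and 1 lower, Procr, the endothelial protein C receptor gene (-1.74 ± 0.34). Of 11 genes of CD142 stromal cells of fat, 4 were called higher and none lower: Gdf10, Fmo2 (1132 against 360.4 CPM), Clec11a (278 against 119.5 CPM) and Meox2 (66.6 against 32.9 CPM). Of 17 genes of fat cell precursors and lipid handling, 3 were called higher and none lower, G0s2 (148 against 69.2 CPM), Apod (138 against 61.4 CPM) and Dlk1 (3.00 against 1.51 CPM).

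Matrix genes were split by class, and their counts stand beside 1.98% of all genes called higher and 2.48% called lower. Of 15 proteoglycan genes, 5 were called higher, which were Podn (log2 fold change 1.84 ± 0.08), Fmod, Gpc3 (1.59 ± 0.13), Omd (1.26 ± 0.13) and Ogn (1.23 ± 0.11), and 3 lower, Acan (-2.44 ± 0.30), Vcan (-1.62 ± 0.10) and Prg4 (-1.12 ± 0.11). The higher ones other than Gpc3 encode small leucine-rich proteins, and Acan and Vcan encode large aggregating ones. No collagen gene of 14 was called. Col1a1 differed by 0.68 ± 0.12, Col1a2 by 0.77 ± 0.09 and Col3a1 by 0.62 ± 0.12. Of 18 elastic fibre genes, Lox, a crosslinking enzyme gene, was called higher (1.28 ± 0.21) and Loxl2 lower (-1.01 ± 0.07), and Eln was at 0.87 ± 0.11, Fbln5 at 0.97 ± 0.08 and Mfap4 at 0.83 ± 0.07.

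Signalling lists held calls in both directions, beside 1.98% of all genes called higher and 2.48% called lower. Of 18 BMP and GDF genes, 5 were called higher, which were Gdf10, the BMP antagonist gene Chrdl1 (log2 fold change 1.75 ± 0.10), Bmp4 (1.15 ± 0.08), Bmpr1b and Bmp3, and 2 lower, Bmp6 (-1.79 ± 0.24) and Bmp5 (-1.68 ± 0.25). Of 15 Wnt modulators, Sfrp1, a secreted Wnt antagonist gene, was called higher (699 against 276 CPM, 1.42 ± 0.07), and 6 were called lower, among them the antagonist gene Wif1 (-2.53 ± 0.31), the target gene Axin2 (-1.63 ± 0.24) and the agonist gene Rspo3 (-1.50 ± 0.27). Of 14 TGF-beta ligand and receptor pathway genes 1 was called, Inhba (-1.02 ± 0.12), and of 16 TGF-beta target genes 2 were called lower, Postn (-1.33 ± 0.29) and Thbs1 (-1.15 ± 0.16). Smad3 itself differed by 0.46 ± 0.07.

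Of 15 complement genes, C2 and Cfb (log2 fold change 1.20 ± 0.18) were called higher and Clu (-1.67 ± 0.19) and C1qa (-1.01 ± 0.27), a macrophage gene, lower. Here too the shares over all genes were 1.98% higher and 2.48% lower. Of 19 chemokine and cytokine genes, Cxcl12 was called higher (845 against 370.3 CPM, 1.31 ± 0.10) and Cxcl2 lower (-1.03 ± 0.28). Of 12 genes of retinoid and steroid handling, Cyp26b1, whose enzyme breaks down retinoic acid (2.50 ± 0.24), and Rbp4 (1597 against 671 CPM) were called higher, and Aldh1a3 (-1.51 ± 0.26) and Crabp2 (-1.53 ± 0.27) lower. None of 13 genes of Pi16 fibroblasts was called at the fold limit, and their median log2 fold change was -0.46. By an edgeR adjusted p below 0.05 alone, 6 of them were lower and 0 higher, beside 2372 lower and 2356 higher of all 12266 genes. Of 9 genes of Col15a1 fibroblasts Penk and Ndufa4l2 were called higher, a count that was 0 with thinned cells. None of 8 IGF genes and none of 8 interferon-induced genes was called.

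**Figure D4:**
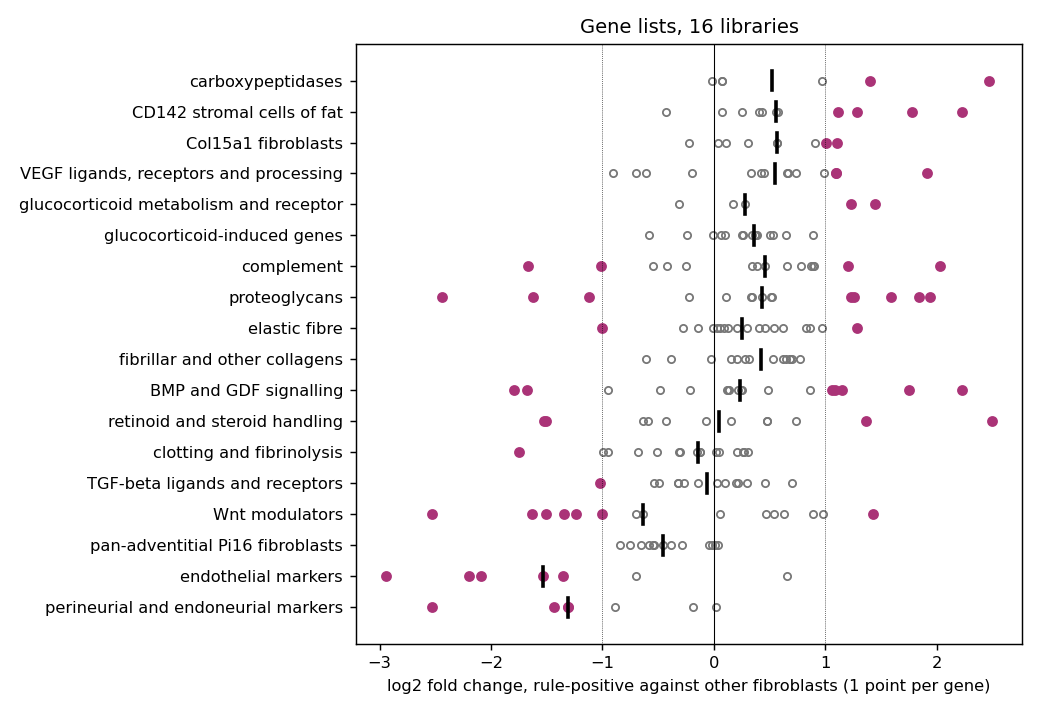
Log2 fold change between rule-positive and other fibroblasts (x axis) for each tested gene of the lists (1 row per list, 1 point per gene, filled where called, bar at the median of the list, dotted lines at -1 and 1). Of the lists drawn, the endothelial markers have the lowest median, -1.53.

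Markers of other cells differed between the populations, and their counts stand beside 1.98% of all genes called higher and 2.48% called lower. Of 7 tested endothelial markers 5 were called lower, among them Emcn (log2 fold change -2.94 ± 0.39) and Cdh5 (-2.20 ± 0.39), and their sums ranged over 22.8 to 72.8 CPM in the rule-positive and 12.02 to 178 CPM in the other fibroblasts. Of 7 perineurial and endoneurial markers 4 were called lower, with sums of 127.99 to 321 CPM and 157 to 1341 CPM. Leukocyte markers summed to 5.92 to 353 CPM and 19.7 to 610.0 CPM, with 1 of 9 called lower, and VSMC markers to 517 to 13974 CPM and 657 to 11760.0 CPM, with 0 of 9 called. Of 7 pericyte markers Abcc9 (179.8 against 85.6 CPM) and Ndufa4l2 were called higher and Vtn (1.11 against 3.31 CPM) lower. Of 5 Schwann cell markers 2 were called lower, of 4 heart muscle markers none was called, and the only tested mesothelial marker, Nkain4, was called higher (14.6 against 5.57 CPM). The part of such cells in the results was not tested. Fibroblast markers were present in both populations, none of 11 was called, with Pdgfra at 261 against 180.0 CPM and Col1a1 at 3517 against 2373 CPM. Of 20 early response genes, known to be induced by dissociation, none was called.

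Other small gene sets mark fibroblasts as well, and their overlap with the rule-positive cells was measured per library. Of 5139 fibroblasts with UMIs of at least 2 of Tnfrsf11b, Dio2 and Hhip, 3824 (74.4%) were rule-positive, which was 23.2% of the rule-positive cells. The set came to 23.7% ± 10.4 of the rule-positive and 7.73% ± 4.30 of the other fibroblasts (SD, n = 16), higher in 16 of 16 libraries (exact sign-flip permutation p = 3.05e-05, the smallest possible, adjusted over 7 sets 0.000107). After thinning, with the rule-positive cells still chosen on all UMIs, the values were 7.79% ± 4.33 of the rule-positive and 2.32% ± 1.60 of the other fibroblasts. Dio2, whose enzyme activates thyroid hormone, was at 135 against 45.3 CPM and Hhip, which encodes a hedgehog-binding protein, at 70.2 against 28.7 CPM. Foxd1 with Col11a1 was found in 4.07% ± 2.02 of the rule-positive and 1.07% ± 0.611 of the other fibroblasts, again higher in 16 of 16 libraries (exact permutation adjusted p = 0.000107). After thinning it was found in 0.417% ± 0.252 and 0.128% ± 0.134, higher in 13 libraries and lower in 1 (exact permutation adjusted p = 0.00192). Coch with Wif1 was found in 0.336% ± 0.381 of the rule-positive and 6.69% ± 6.02 of the other fibroblasts, lower in 15 libraries (exact permutation adjusted p = 0.000107), and 64 of 1252 such cells were rule-positive. Chad with Thbs4 was found in 0.220% ± 0.226 of the rule-positive and 0.902% ± 0.656 of the other fibroblasts (lower in 15 libraries, exact permutation adjusted p = 0.000107). With thinned cells this was 0.118% ± 0.189 and 0.440% ± 0.317 (lower in 14 libraries, exact permutation adjusted p = 0.00192). The set of Has1, Spon2 and Cxcl5 came to 5.32% ± 4.90 of the rule-positive and 8.16% ± 9.53 of the other fibroblasts (lower in 11 libraries, exact permutation adjusted p = 0.0114). The set of Cnmd, Inmt and Ggt5 came to 4.18% ± 4.82 of the rule-positive and 2.07% ± 1.88 of the other fibroblasts (higher in 13 libraries, exact permutation adjusted p = 0.00846, and 0.0901 after thinning). Dpp4 with Smpd3 came to 0.902% ± 1.22 of the rule-positive and 1.11% ± 0.751 of the other fibroblasts (lower in 12 libraries, exact permutation adjusted p = 0.621).

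Within the rule-positive fibroblasts the genotype labels were compared at 18 weeks. In edgeR with a batch term, 0 of 13401 genes (0%) had an adjusted p below 0.05 and 522 (3.90%) an unadjusted p below 0.05, while DESeq2 called 7 genes. The edgeR count was also 0 without the libraries whose GFP went against the label. Batch 5 held no Smad3+/+ library, so with the batch term the fold changes rest on 5 of the 7 Smad3SmKO libraries, while the ranges given cover all 7. In the other fibroblasts edgeR likewise called 0 of 13901 genes, with 294 at an unadjusted p below 0.05. The genes with the smallest p are given as values, since none passed in edgeR.

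Tppp3, the gene of a tubulin polymerization-promoting protein, was at 73.4 to 127.9 CPM in the 5 Smad3+/+ libraries and at 34.4 to 78.7 CPM in the 7 Smad3SmKO libraries, of which 6 lay below every Smad3+/+ library (log2 fold change -0.83 ± 0.17, SE, edgeR adjusted p = 0.592). Mtss1, an actin regulator gene, was at 6.37, 6.83, 6.60, 9.79 and 7.27 CPM against 8.82 to 39.2 CPM, and 5 of 7 Smad3SmKO libraries lay above every Smad3+/+ library (1.37 ± 0.28, edgeR adjusted p = 0.598). Both kept their direction in the 4 batches that held both labels, and so did each gene given below from Amotl2 to Alkal2. All were chosen by the smallest p in a fit that compares the labels within these batches. Their agreement was thus largely set by that choice, and so in part were the counts of libraries beyond every library of the other label. The shares of all genes that kept their direction or separated to that extent were not counted. Amotl2, an angiomotin gene, was at 26.4 to 57.4 CPM against 40.1 to 71.2 CPM (0.69 ± 0.13), Prss23, a serine protease gene, at 94.1 to 330.2 CPM against 138 to 369 CPM (0.71 ± 0.14), and Lfng, the gene of a glycosyltransferase of Notch receptors, at 1.25 to 4.84 CPM against 2.37 to 7.86 CPM (1.17 ± 0.21). Gpr176 was near the detection limit, at 0 to 0.303 CPM against 0.230 to 2.37 CPM. Thrsp, a gene of lipid synthesis, was at 3.73 to 29.4 CPM against 2.60 to 14.97 CPM (-1.02 ± 0.20), Gm10605 at 2.45 to 7.17 CPM against 1.42 to 4.38 CPM (-1.11 ± 0.23), Mme, the neprilysin gene, at 17.3 to 94.2 CPM against 5.51 to 52.3 CPM (-0.94 ± 0.22) and Alkal2 at 1.51 to 9.57 CPM against 0.502 to 6.22 CPM (-1.29 ± 0.31). DESeq2 called Lfng, Amotl2, Prss23, Mtss1, Thrsp, Tppp3 and Dlk1, the last of which was at 0.456 to 7.32 CPM against 0 to 6.64 CPM.

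**Figure D5:**
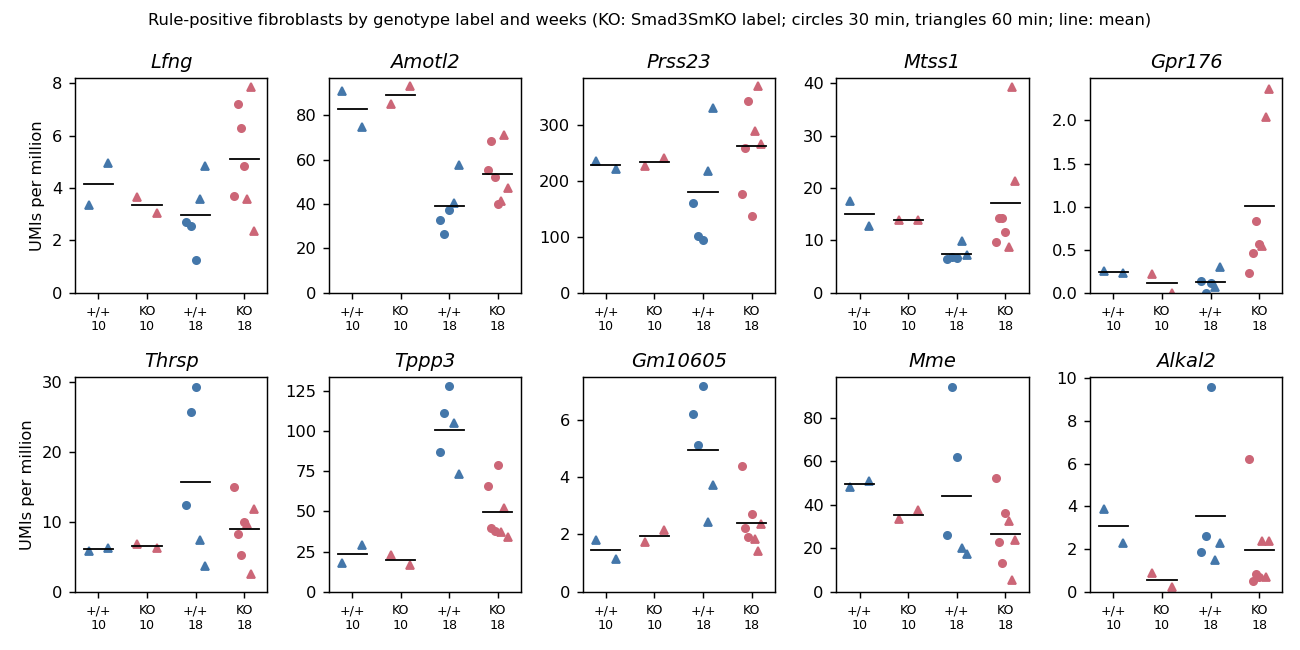
CPM (y axis) of the 10 genes named for genotype at 18 weeks in the rule-positive fibroblasts, 1 point per library by label and time (line at the mean). None passed the adjustment in edgeR, and for Tppp3 6 of the 7 Smad3SmKO libraries of 18 weeks lie below all 5 Smad3+/+ libraries. The genes were chosen by the smallest p, and the share of all genes that separated to that extent was not counted.

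The rule-positive cells were chosen by UMIs of the rule genes, so the genotype values of these genes in them are a description only. The log2 difference between the labels at 18 weeks was 0.81 ± 0.30 for Cpxm2, 0.26 ± 0.44 for Vegfd, 0.11 ± 0.37 for Hsd11b1 and -0.12 ± 0.56 for F3. Among 15 genes of the VEGF list 6 had an unadjusted p below 0.05, beside 3.90% of all genes, and none an adjusted one. Vegfc (0.42 ± 0.12), Nrp2 (0.84 ± 0.25) and Angpt2 (0.92 ± 0.29) were on the higher side in Smad3SmKO, and Pgf (-0.89 ± 0.26), Angpt4 (-0.79 ± 0.28) and Vegfa (-0.42 ± 0.17) on the lower. Vegfc was at 30.6 to 36.8 CPM in Smad3+/+ and 37.2 to 60.7 CPM in Smad3SmKO. These ranges did not overlap, and the share of all genes that separated in this way was not counted. Among 8 genes of glucocorticoid metabolism and reception the count was 3, with H6pd at 0.58 ± 0.20, Hsd11b2 at -1.51 ± 0.45 and Srd5a3 at -0.29 ± 0.12. Of 20 early response genes 18 were on the higher side in Smad3SmKO, with 0 at an unadjusted p below 0.05. Their median log2 difference was 0.22, against 0.01 over all genes, and the share of all genes on that side was not counted. Leukocyte marker sums were 25.4 to 195 CPM in Smad3+/+ and 5.92 to 353 CPM in Smad3SmKO, and the part of either in these values was not tested.

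At 10 weeks, with 2 libraries per label, edgeR called 0 of 13401 genes (0%), with 189 at an unadjusted p below 0.05. DESeq2 called 1, Kera, which was at 0.217 CPM in 1 library and at 0 in the other 3. Alkal2 was among the genes with the smallest p at both times, at 3.06 CPM on average in Smad3+/+ and 0.540 CPM in Smad3SmKO at 10 weeks (log2 fold change -2.48 ± 0.62, edgeR adjusted p = 1.00). Supt16, a histone chaperone gene, was at 30.9 against 54.8 CPM. The difference between the genotype effects at 18 and 10 weeks was called for 0 of 13401 genes (0%) in edgeR, with 235 at an unadjusted p below 0.05, and for 0 in DESeq2. The genotype difference on the log2 scale was higher at 18 weeks by 1.49 ± 0.38 for Slc9b2 and by 1.44 ± 0.41 for Lfng. Both Smad3SmKO libraries of 10 weeks had GFP against their label, so these comparisons could not be fitted without them. Time and batch cannot be told apart for the levels themselves, since the 10-week libraries were all in batch 4.

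Whether the genotype difference at 18 weeks differed between the rule-positive and the other fibroblasts was tested as an interaction. edgeR called 0 of 13704 genes (0%), with 352 at an unadjusted p below 0.05, and DESeq2 called 0. The smallest edgeR adjusted p was 0.0805, for the immunoglobulin gene Ighg2c (-6.79 ± 0.54 on the log2 scale), whose median in the rule-positive cells was 0 under both labels and whose highest library there was Smad3+/+, at 81.6 CPM. Bst2, an interferon-induced gene, was at -0.51 ± 0.12 and Btc, the betacellulin gene, at -1.40 ± 0.33. On the higher side were the mesothelial markers Msln and Upk3b, which were at no more than 1.55 CPM in the rule-positive cells of any 18-week library, Lrrc75a (0.38 ± 0.09) and the heat shock gene Hspa1a (0.40 ± 0.11).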

How the data were processed

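Droplet single-cell libraries of 16 mouse aortas were compared. The authors deposited UMI counts per gene and barcode, made with Cell Ranger on mm10 plus GFP and not normalized. The list of features also holds an entry named Sm3_intact, which had no UMIs in any library. The submitters' processing notes name Cell Ranger 6 and Seurat 4, and the matrix headers name release 4. The limits on cells (genes above 600 and below 6000, UMIs above 2000 and below 50000, mitochondrial share below 25%) kept 50858 of 66349 barcodes. Library totals ran from 12539539 to 52843031 UMIs. Doublets stayed in, and 1 alternative left out the 1593 cells that Scrublet scored highest.

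UMIs were summed per library and population, so that the mouse was the replicate, and tested in edgeR 4.0.16 (quasi-likelihood, TMM, filterByExpr, Benjamini-Hochberg adjustment, R 4.3.3), with DESeq2 1.42.0 as an alternative. Standard errors are the log2 fold change over the root of the F statistic. Rule genes, Dcn and Myh11 were left out of the comparison with the other fibroblasts, which had the library as a block. Genotype within a population had a batch term, and the interaction had the library as a block and no term for population by batch. Called meant an adjusted p below 0.05 and, between populations, a log2 fold change of at least 1 in size. Shares were compared by exact permutation. The scripts were tested on simulated data. Other settings changed the filter, scaling, cell rule, depth, digestion time and libraries.

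Named genes were the 12 highest and 12 lowest called genes by fold with at least 20 CPM in the higher population and 1 direction in every library, and for genotype the 5 with the smallest p each way, beside the lists. The cell rule, lists and tests were chosen with earlier results of these data known.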

Additional observations from a re-analysis of the deposited data

Results flagged for a closer look

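In 32 groups of 18-week libraries, 4 held a library whose gap to its neighbour was a large part of the range of its group. A gap of that size arises by chance in about 1 in 20 groups. Mtss1 in the rule-positive fibroblasts was at 9.79 CPM in Smad3+/+ replicate 4, against 6.37 to 7.27 CPM in the other Smad3+/+ libraries, and at 39.2 CPM in Smad3SmKO replicate 6, against 8.82 to 21.3 CPM. Alkal2 was at 9.57 CPM in Smad3+/+ replicate 3, against 1.51 to 2.61 CPM, and at 6.22 CPM in Smad3SmKO replicate 1, against 0.502 to 2.40 CPM. Smad3+/+ replicate 3 and Smad3SmKO replicate 1 were the libraries of batch 2.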

How the results depend on the processing

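The difference in share at 18 weeks did not pass the test in any setting. It turned to 1.66 points with thinned cells, 1.11 with at least 3 rule genes and 5.00 in the 30 min libraries alone, while it was -13.0 in the 60 min libraries alone (exact permutation p = 0.400, smallest possible 0.1), and ran from -5.53 to 1.84 with 1 library left out, the latter without Smad3SmKO replicate 7. The calls against the other fibroblasts went from 547 (243 higher, 304 lower) to 289 (145 and 144) with thinned cells and to 1262 (432 and 830) with no count filter, where more genes were tested. Leaving out 1 library gave 514 to 617. The log2 fold changes of the held-out rule genes passed the test under every alternative run. Genotype calls at 18 weeks were 0 with any 1 library left out, 7 with DESeq2 and 23 in the 60 min libraries alone, where 1 Smad3SmKO library carries the contrast, and at 10 weeks 1 with DESeq2. The interaction called 1 gene with no count filter, 3 in the 60 min libraries alone and 1 without Smad3+/+ replicate 4 (0 to 1 over libraries left out). The cause was not tested for these genotype counts. Leaving out shared barcodes and tracer mismatches, and the levels over all fibroblasts, were chosen after seeing the data. No paired analysis was possible because the labels give no replicate numbers (those used here follow accession order), and batch, which the labels do give, was a term of the genotype fits. The number of libraries limits the genotype comparisons.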

Other observations

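In the 60 min libraries of 18 weeks alone, edgeR with the batch term called 23 genes between the labels in the rule-positive fibroblasts, 19 higher and 4 lower in Smad3SmKO. Only batch 6 held both labels there, so the contrast rests on 1 Smad3SmKO library, replicate 6, against Smad3+/+ replicates 4 and 5, and its spread is assumed to be that of the other libraries in the fit. It describes that library and not the genotype. Among the genes that passed the adjustment, the highest fold was that of Rgs1 (log2 fold change 6.11 ± 0.64, SE) and the lowest that of Adamts8 (-4.09 ± 0.44). Mtss1 was among them (2.33 ± 0.35), and replicate 6 was its highest library, at 39.2 CPM.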
